A study of Mus musculus with 8 samples.

Results

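Expression of 8 genes of the red cell lineage was followed in RNA from mouse rib cartilage cells: the embryonic globins Hbb-y, Hbb-bh1 and Hba-x, the adult beta globin Hbb-b2, and the erythroid genes Alas2, Slc4a1, Epb42 and Klf1. They were taken as every probe set (a group of short probes for one transcript) whose annotation names one of these symbols alone, which gave 8 of 18193 genes and 16 of 45037 probe sets. The genes were chosen with their signals on these arrays known, so their levels and differences are given as a description. The study asked how overexpression of the transcription factor Hoxd4 alters transcription in chondrocytes. Rib cages of FVB mouse embryos at E18.5 (embryonic day) were digested with collagenase and trypsin, strained, and stored in Trizol. Total RNA was biotin labelled and hybridised to 8 one-colour Affymetrix arrays. The embryos came from 4 litters, and those of one litter were grouped by genotype into a control group, labelled wild type, and a group labelled Hoxd4 transgenic, so each group has 4 arrays, one per litter. A pool below means the embryos of one genotype from one litter. The number and sex of the embryos in a pool, and the promoter that drives the transgene, are in none of the sources used here.

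Red cells carry oxygen on haemoglobin, a tetramer of alpha-type and beta-type globin chains. Early in mouse development, primitive erythrocytes from the yolk sac make the embryonic chains, zeta (Hba-x) with epsilon y (Hbb-y) or beta h1 (Hbb-bh1). Definitive red cells from the fetal liver make the adult chains, and the primitive cells lose their nuclei and become a small minority of the circulation late in gestation. Blood is not a product of chondrocytes, and a bulk RNA sample of dissociated tissue holds whatever cells were in the digest. Fewer cells of a type and less RNA per cell cannot be told apart in such samples.

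The arrays gave MAS5 signals, a linear brightness per probe set that was scaled to the same trimmed mean on each array. The labelled cell type was borne out by its markers: all 14 cartilage genes, among them Col2a1 and Acan, were bright on every array, and their summed signal ran from 364935 to 410660.1. The Hoxd4 check was mixed. The brighter of the probe sets shared by Hoxd4 and its neighbour Hoxd3 was higher in the transgenic pool in 3 of 4 litters, and in litter 4 it read 256 in the library labelled control and 13.0 in the library labelled transgenic. Transgenic and control below are therefore the labels of the libraries. Directions between them rest on the labels. No 2 arrays held identical values.

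Promoters are shown for the brighter of the 8 genes that had an entry in the RefSeq promoter table used here, which are the embryonic globins Hbb-y and Hba-x and the haem gene Alas2. That table matched 5 of the 8 genes (Hbb-y, Hba-x, Alas2, Epb42 and Klf1). The adult beta globin Hbb-bt, which lies in the same cluster as Hbb-y and is read here only by a shared probe set, is added for comparison. Each window is the 250 bases before the annotated start in GRCm38.p6, read 5′ to 3′ on the gene's strand. Capitals mark matches on either strand to CACCC (the core of the box bound by KLF1 and related factors), to CCAAT (the box bound by NF-Y), to TATAAA (the core promoter element) and to AGATAA (a site of the kind bound by GATA1). Hbb-y is at chr7:103853208-103853457 on the minus strand, Hba-x at chr11:32276350-32276599 on the plus strand, Alas2 at chrX:150547167-150547416 on the plus strand and Hbb-bt at chr7:103813924-103814173 on the minus strand.
Hbb-y: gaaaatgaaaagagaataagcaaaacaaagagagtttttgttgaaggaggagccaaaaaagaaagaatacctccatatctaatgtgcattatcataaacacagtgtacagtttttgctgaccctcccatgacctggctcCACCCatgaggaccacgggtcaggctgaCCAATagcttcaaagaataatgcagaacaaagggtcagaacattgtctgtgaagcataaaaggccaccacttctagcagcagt
Hba-x: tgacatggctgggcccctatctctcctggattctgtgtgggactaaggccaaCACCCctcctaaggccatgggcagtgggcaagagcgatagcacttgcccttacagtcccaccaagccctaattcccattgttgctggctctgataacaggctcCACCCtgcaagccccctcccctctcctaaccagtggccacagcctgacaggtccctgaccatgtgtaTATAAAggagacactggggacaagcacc
Alas2: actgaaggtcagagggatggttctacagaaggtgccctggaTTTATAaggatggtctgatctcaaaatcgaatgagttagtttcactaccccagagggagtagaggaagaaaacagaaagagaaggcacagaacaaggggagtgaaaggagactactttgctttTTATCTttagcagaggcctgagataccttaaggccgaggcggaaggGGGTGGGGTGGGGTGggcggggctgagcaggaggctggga
Hbb-bt: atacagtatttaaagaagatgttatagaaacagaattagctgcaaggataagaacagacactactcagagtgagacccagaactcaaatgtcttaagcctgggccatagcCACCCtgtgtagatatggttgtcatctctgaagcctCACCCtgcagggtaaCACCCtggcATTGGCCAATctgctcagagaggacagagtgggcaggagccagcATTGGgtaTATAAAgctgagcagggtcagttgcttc
The Hbb-y window held CACCC at 111 bases and CCAAT at 83 bases before the start. Hba-x held CACCC at 198 and 95 bases and TATAAA at 28 bases before the start, with no CCAAT. In Alas2 the 3 CACCC matches lay on the opposite strand at 40, 35 and 30 bases before the start, and AGATAA and TATAAA lay on the opposite strand at 86 and 209 bases. Hbb-bt held 3 CACCC matches, at 140, 104 and 89 bases, with CCAAT at 75 bases and TATAAA at 28 bases before the start, plus 2 CCAAT matches on the opposite strand at 80 and 36 bases. Positions are those of the first base of a match in the printed direction, and no printed match overlapped another. Over 32851 RefSeq windows of 300 bases (250 before and 50 after the start), 57.5% held CACCC, 37.4% CCAAT, 13.6% TATAAA and 11.2% AGATAA on one strand or the other. A match describes the letters and is not a measured binding site.

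The genes divided by brightness. Probe sets were tested where the mean signal over the 8 arrays was above the median of all probe sets, 105.88, which kept 22518 probe sets. Of the 16 probe sets, 8 passed, from 5 genes: 3 of Hbb-y, 2 of Slc4a1 and 1 each of Hba-x, Hbb-b2 and Alas2. The dimmest that passed was the Hba-x probe set, with a mean of 194, and the brightest that did not was the second Hbb-b2 probe set, with a mean of 80.3. All probe sets of Hbb-bh1, Epb42 and Klf1 were below the filter. Signals of different probe sets depend on their probes, so brightness orders transcripts only roughly.

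Hbb-y encodes the embryonic epsilon y chain, and its 3 probe sets moved alike. The brightest, 1436823_x_at, read 565, 605, 2563 and 649 in the control pools of litters 1 to 4 and 513, 432, 1474 and 550.3 in the transgenic pools. Litter 3 stood far above the others in both groups, and the groups overlapped. The second, 1436717_x_at, read 571, 573, 2518 and 626 in the control pools and 457, 417, 1436 and 565 in the transgenic pools. The probe set 1450621_a_at was dimmer, with 73.7, 116, 863 and 169.9 in the control pools and 59.8, 79.6, 416 and 125 in the transgenic pools. The pool of litter 3 was the highest of its group on all 3 probe sets. For the brightest probe set, signal of litter 3 over the median of the other litters was 4.23 (control group) and 2.87 (transgenic group). It was 4.39 and 3.14 for 1436717_x_at, and 7.42 and 5.22 for 1450621_a_at. The suffix _x marks probe sets with probes that can also match other transcripts, whereas 1450621_a_at has no such suffix.

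Hba-x encodes the embryonic zeta chain, the alpha-type partner. Its probe set read 166, 163, 347 and 112 in the control pools and 118, 135, 358 and 155 in the transgenic pools. Litter 3 was again the highest in both groups, at 2.13 times the median of the other litters in the control group and 2.65 times in the transgenic group. The control and transgenic pools of litter 3 were close to each other for this gene, unlike Hbb-y.

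Hbb-bh1 encodes the earliest of the beta-type embryonic chains. Its 3 probe sets stayed at or below 73.3 on all arrays. The brightest of them read 8.44, 24.5, 73.3 and 16 in the control pools and 5.49, 29.6, 17.2 and 7.93 in the transgenic pools. Only the control pool of litter 3 rose clear of the rest, and no second Hbb-bh1 probe set shared that value: the others read 21.6 and 9.64 there. At this brightness the probe sets give no dependable level.

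Hbb-b2 encodes a minor adult beta chain, and its bright probe set, also of the _x kind, read 3208, 3937, 7206 and 6094 in the control pools. In the transgenic pools it read 3020.1, 3518, 5521 and 4821. Litters 3 and 4 were above litters 1 and 2 in both groups, and the groups overlapped. The other Hbb-b2 probe set was dim, from 30.1 to 99.8, and did not follow the bright one: it was lowest in the control pool of litter 3. Laboratory mouse strains carry different adult beta globin haplotypes, and which genes the FVB embryos carry is not stated in the labels.

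The major adult globins were measured only by probe sets that name several genes at once, so they were not counted among the 8 genes. The probe set for Hbb-bt, Hbb-bs, Hbb-b2 and Hbb-b1 read 35168, 32186, 34162 and 31715 in the control pools and 32291, 35769, 32598 and 39373 in the transgenic pools. Neither group had litter 3 as its highest pool there. The 3 bright probe sets for Hba-a1 and Hba-a2 ranged from 32467 to 55362, among the 116 brightest of all probe sets together with the shared beta probe set. Litter 3 over the median of the other litters lay between 0.91 and 1.14 for these 4 probe sets, against 1.57 to 4.23 for the best probe sets of Hbb-y, Hba-x and Hbb-b2. The alpha probe set 1417714_x_at gave the highest signal of the whole array on both arrays of litter 3, at 55362 and 53670. How near these spots were to the top of the scanner's range was not tested.

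Alas2 encodes the erythroid form of the first enzyme of haem synthesis. Its signals were 2947, 3329, 6100.2 and 4613 in the control pools and 2170.4, 3244, 4814 and 3674 in the transgenic pools. The order of the litters from low to high was 1, 2, 4, 3 in both groups, as for Hbb-b2. That shared order was found for 81 of the tested probe sets, or 0.36%, and any order that was the same in both groups for 1639, or 7.28%. The order was read from these genes before it was counted, so nothing is read from the smaller share. Alas2 lies on the X chromosome, and Xist, the RNA that marks an inactive X, differed between pools: its probe set 1427262_at read from 3386 to 6412 in the control pools and from 32.3 to 3561 in the transgenic pools. Xist was highest in the control pool and lowest in the transgenic pool of litter 3, while Alas2 was highest in its group in both. The brightest probe sets of the Y-linked genes Eif2s3y and Uty were higher in the transgenic pool in all 4 litters, with no overlap between groups. Eif2s3y ran from 358 to 772 in the control pools and from 813 to 1178 in the transgenic pools, and Uty from 189 to 384 and from 432 to 691. The other tested Y-linked gene, Kdm5d, was also higher in all 4 litters on its brightest probe set, but its groups overlapped. It ran from 208 to 486 in the control pools and from 475 to 826 in the transgenic pools, and was nearly equal in litter 4. On the brightest Xist probe set, 1436936_s_at, litter 4 read 8098 in the control pool and 8209 in the transgenic pool. By their brightest probe sets the Y-linked signals ran with the genotype label in every litter, and Xist did not in litter 4. The other Xist probe sets were lower in the transgenic pool in every litter. In litter 4 they read 4380 (control) and 3561 (transgenic) on 1427262_at, and 452 and 411 on 1427263_at. The part of these sex-linked signals in the Alas2 values and the other differences was not tested.

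Slc4a1 encodes band 3, the anion exchanger of the red cell membrane. The brighter probe set read 241, 258, 420.2 and 432 in the control pools and 159, 238, 337 and 339 in the transgenic pools. Litters 3 and 4 were nearly equal and were the high pair in both groups. The second probe set read 138, 193, 455 and 325 in the control pools and 181, 213, 231 and 205 in the transgenic pools. The probe sets disagreed on litter 4 of the transgenic group, which was the highest pool on the first and the second lowest on the second. The remaining probe set stayed at or below 25.5.

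Epb42 encodes protein 4.2, which links band 3 to the membrane skeleton, and Klf1 encodes the erythroid activator of adult beta globin. The brighter Epb42 probe set read 1.32, 16.1, 4.15 and 40.3 in the control pools and 29.1, 4.26, 28.1 and 40.7 in the transgenic pools, and the other stayed between 4.73 and 13.5. Neither showed the litter 3 excess of the globins. Klf1 read 53.3, 56.4, 119 and 57.2 in the control pools and 53.2, 85.6, 45.3 and 55.4 in the transgenic pools. The control pool of litter 3 was the highest of all and the transgenic pool of litter 3 the lowest. Of the 14 other listed erythroid regulators with a probe set of their own, 8 passed the filter, among them Lmo2, with a mean signal of 149 over all arrays, Cbfa2t3 with 147, Lyl1 with 129 and Zfpm1 with 117. Those below it included Gata1 with 84.7, Tal1 with 65.7, Gfi1b with 24.8 and Nfe2 with 22.7.

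**Figure D1:**
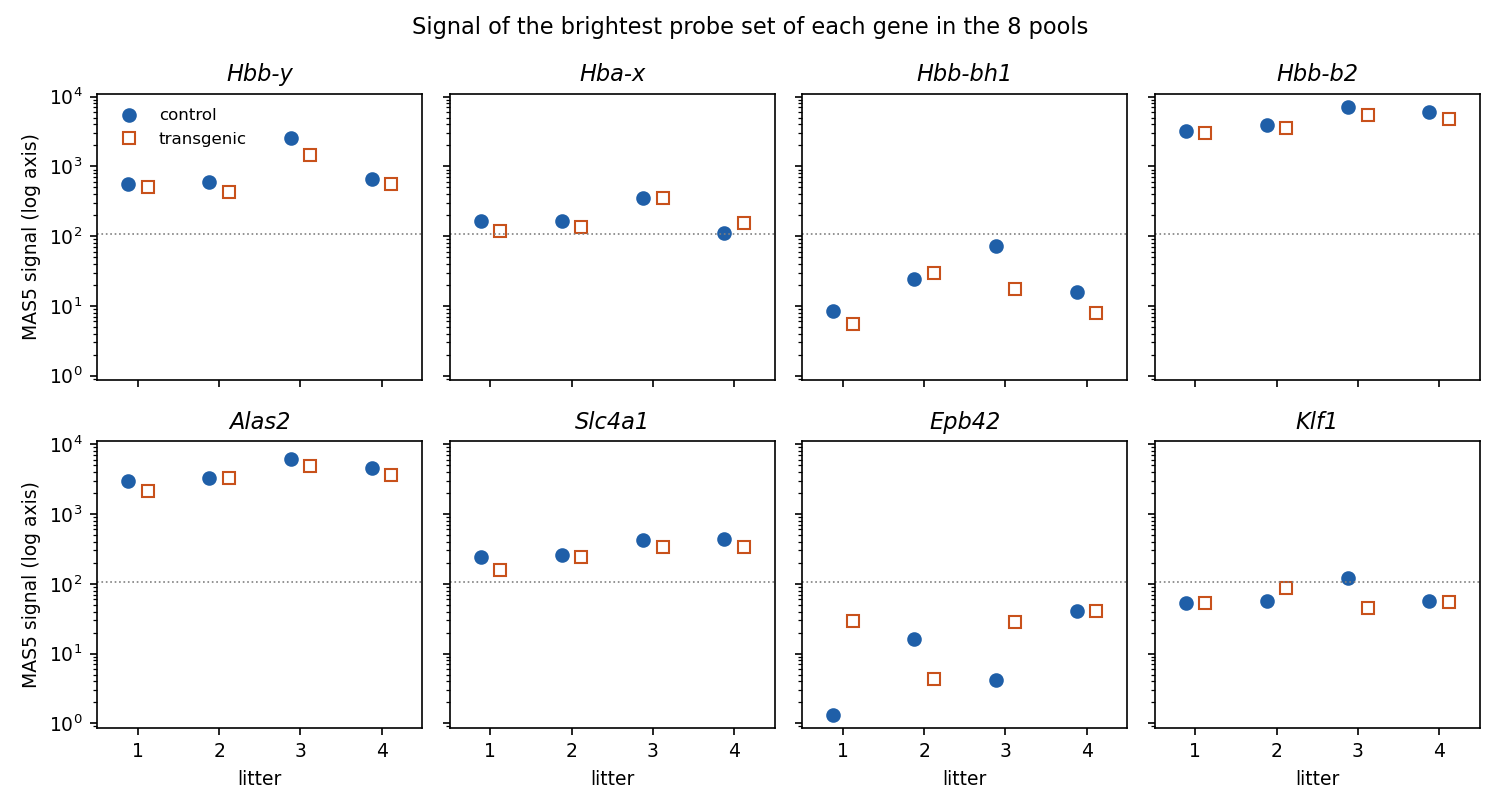
MAS5 signal (log axis) of the brightest probe set of each of the 8 genes against litter number, with filled circles for control pools, open squares for transgenic pools and a dotted line at the filter of 105.88. Hbb-y, Hba-x, Hbb-b2 and Alas2 are highest in litter 3 in both groups, whereas Hbb-bh1, Epb42 and most Klf1 pools lie below the line.

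The difference between the genotype labels was fitted with limma on log2(signal + 32), a scale that understates the change of dim probe sets. Over all tested probe sets 0 of 22518 (0.0%) passed an adjusted p of 0.05 with limma (lowest 0.57), while 740 (3.29%) were under 0.05 without adjustment, 385 of them (1.71%) lower in the transgenic group. None of the 8 probe sets was among the 740. Hbb-y differed by -0.40 (95% interval -1.33 to 0.53), -0.42 (-1.35 to 0.52) and -0.50 (-1.75 to 0.76) on its 3 probe sets, transgenic minus control. Hba-x differed by -0.05 (-0.73 to 0.63) and Hbb-b2 by -0.24 (-0.73 to 0.25). Alas2 differed by -0.28 (-0.78 to 0.21), and Slc4a1 by -0.31 (-0.80 to 0.19) and -0.26 (-0.81 to 0.30). Every interval held 0.

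All 8 fitted differences were below 0, where 48.8% of all tested probe sets were, and their median was -0.30 against 0.00 over all. The transgenic pool was lower than the control pool of the same litter in all 4 litters for 6 of the 8 probe sets (not Hba-x and the dimmer Slc4a1 probe set), a pattern that 6.6% of all tested probe sets showed. The genes were chosen with these values known, so nothing is read from either count. Signals of the 2 groups overlapped for all 8 probe sets, and did not overlap for 2.27% of all tested probe sets. Within litters 1 to 4, the log2 difference was -0.13, -0.46, -0.78 and -0.23 for Hbb-y, and -0.09, -0.16, -0.38 and -0.34 for Hbb-b2. It was -0.44, -0.04, -0.34 and -0.33 for Alas2. Hba-x had no single direction, with -0.40, -0.22, 0.04 and 0.38.

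The same litters supplied both groups, so the fit was repeated with litter as a block. The block left each difference as it was and narrowed the intervals: -0.64 to -0.16 for Hbb-y, -0.38 to -0.11 for Hbb-b2, -0.43 to -0.14 for Alas2 and -0.58 to -0.03 for the brighter Slc4a1 probe set. The intervals of Hba-x (-0.42 to 0.32) and the dimmer Slc4a1 probe set (-0.69 to 0.17) still held 0. Across all tested probe sets 0 passed with the block too (limma, lowest adjusted p 0.30), and 1248 (5.54%) had an unadjusted p under 0.05, with 6 of the 8 probe sets among them. Without the control pool of litter 3 the unblocked values of the 3 Hbb-y probe sets turned to 0.11, 0.09 and 0.16, and that of Hba-x to 0.23, in a fit that keeps the high transgenic pool of litter 3 without its partner. Without the same array Hbb-b2 went to -0.05, Alas2 to -0.09 and Slc4a1 to -0.20 and -0.00. Without both arrays of litter 3 the signs held, with -0.27 for Hbb-y, -0.19 for Hbb-b2, -0.27 for Alas2, -0.31 for the brighter Slc4a1 probe set and -0.05 for the dimmer one.

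The shared adult globin probe sets did not go the same way. Their fitted differences were 0.07 (-0.08 to 0.21) for the beta probe set and 0.02, 0.07 and 0.10 for the alpha probe sets, and each interval held 0. These signals are among the brightest, and whether the top of the scanner's range flattened their differences was not tested. The markers of the other cell types that the digest could hold were read beside these values. Summed over its 13 tested genes, endothelium ran from 3266 to 4159 in the control pools and from 2786 to 3812 in the transgenic pools. The 7 macrophage genes ran from 1686 to 3401 and from 1618 to 3046, and the 5 granulocyte genes from 2304 to 5803 and from 2468 to 6862. The 4 megakaryocyte genes ran from 957 to 1544 and from 877 to 1409.7. Their part in the globin differences was not tested.

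**Figure D2:**
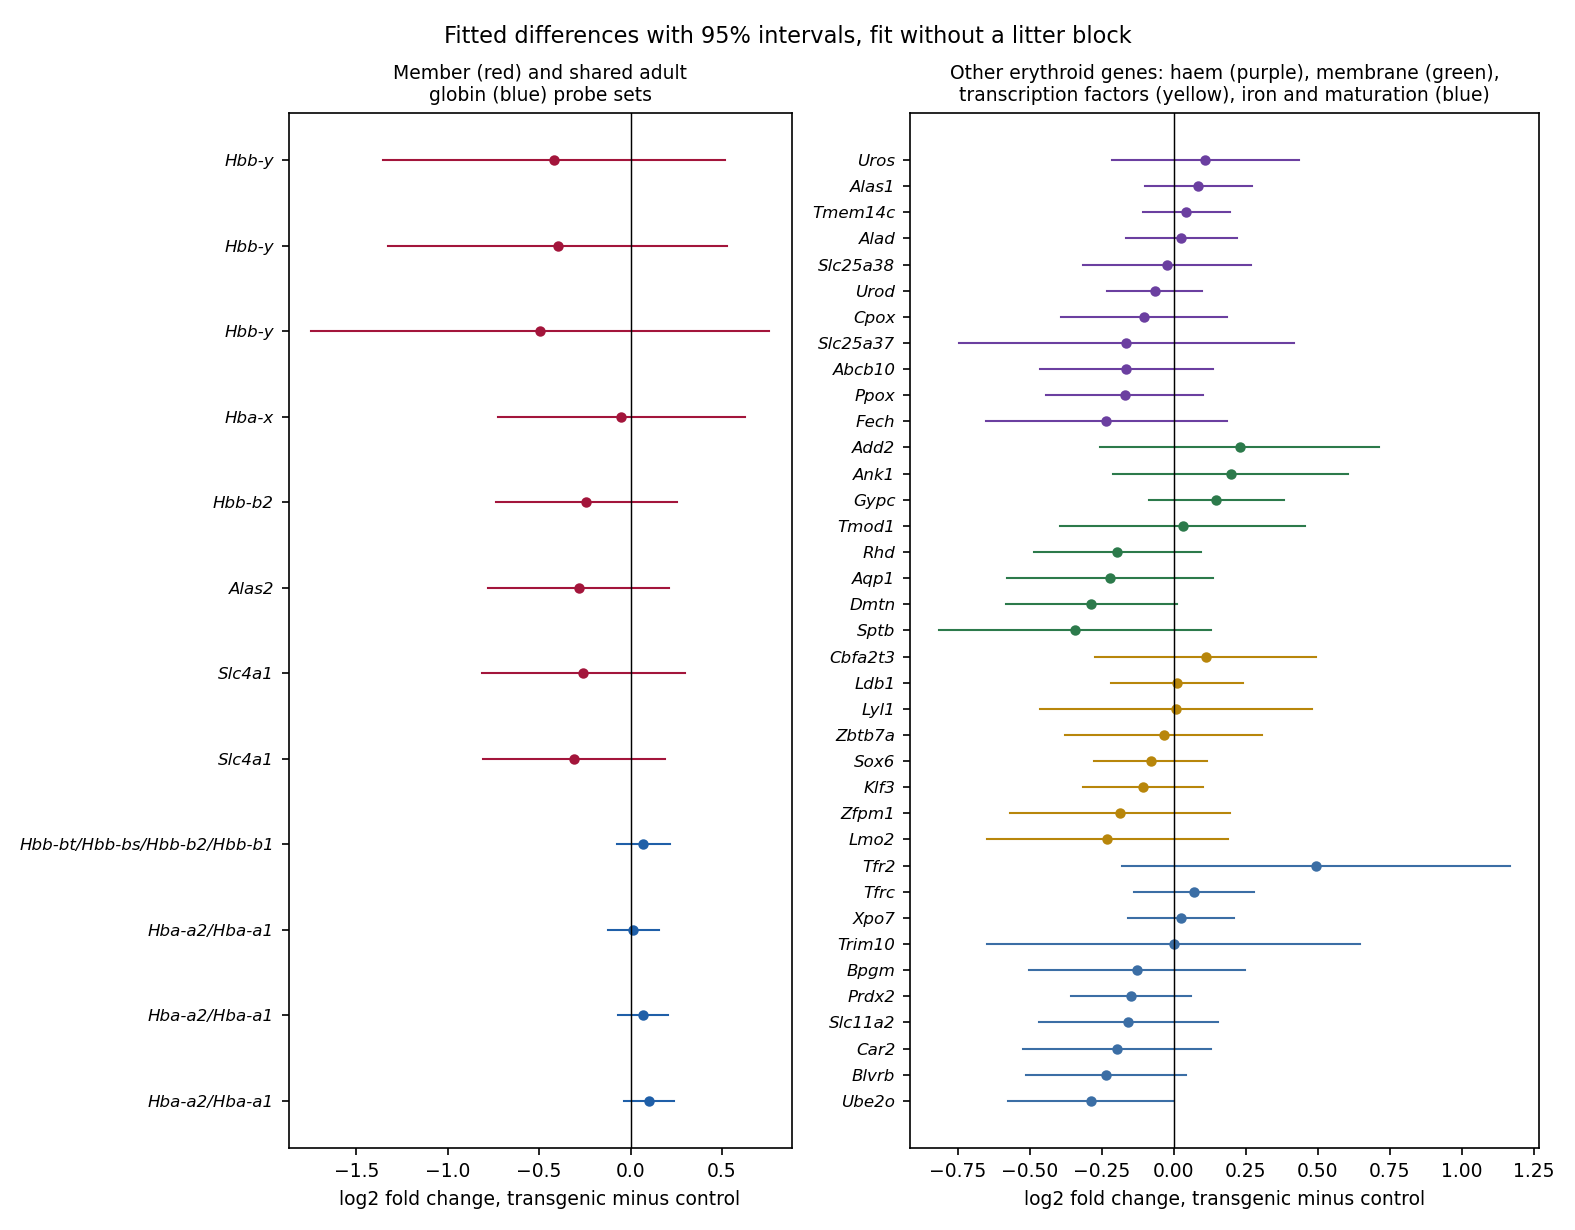
Fitted log2 fold change, transgenic minus control, with 95% intervals from the fit without a litter block, for the 8 tested probe sets of the 5 bright genes and the 4 shared adult globin probe sets (left) and for 37 other erythroid genes (right). All 8 points of the first group lie left of 0 with intervals across it, and the 4 shared probe sets lie just right of 0.

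The ratio of embryonic to adult-type globin was taken per pool as the signal of an embryonic globin over that of Hbb-b2, each by its brightest probe set. Because probe sets differ in their probes, the ratio compares pools and is no ratio of transcripts. For Hbb-y it was 17.6%, 15.4%, 35.6% and 10.6% in the control pools, a mean of 19.8% ± 10.9 (SD, n = 4), and 17.0%, 12.3%, 26.7% and 11.4% in the transgenic pools, 16.9% ± 7.01 (SD, n = 4). By this probe set, 1436823_x_at, litter 3 had the highest ratio and litter 4 the lowest in both groups, and the groups overlapped. The mean log2 difference of -0.17 was within the spread of the pools and was negative in 3 of 4 litters. Both the place of litter 4 and that direction depend on the probe set. With the dimmer 1450621_a_at as numerator, litter 1 would be the lowest in both groups. The transgenic pool would then be lower in every litter. The pairing by litter (replicate block) gave the same mean, since every litter holds both groups.

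For Hba-x the ratio to Hbb-b2 was 5.18%, 4.13%, 4.82% and 1.83% in the control pools and 3.92%, 3.83%, 6.48% and 3.22% in the transgenic pools. Litter 4 was the lowest in both groups, litter 3 was the highest only among the transgenic pools, and the log2 difference was 0.18. The ratio of Hbb-bh1, 0.26%, 0.62%, 1.02% and 0.26% in the control pools and 0.18%, 0.84%, 0.31% and 0.16% in the transgenic pools, rests on a dim numerator. Over the shared beta globin probe set in place of Hbb-b2, the Hbb-y ratio was 1.61%, 1.88%, 7.50% and 2.05% in the control pools and 1.59%, 1.21%, 4.52% and 1.40% in the transgenic pools. That ratio was lower in the transgenic pool in 4 of 4 litters, by -0.48 on the log2 scale, and litter 3 was again the highest in both groups. The log2 difference of the Hbb-y ratio was smaller over Alas2 (-0.13) and over Slc4a1 (-0.07), where the transgenic pool was lower in 2 of 4 litters. The Hba-x ratio turned from 0.18 over Hbb-b2 to -0.13 over the shared beta probe set. For the Hbb-y ratio over the shared beta probe set, litter 4 was not the lowest pool in either group. For the Hba-x ratio over it, litter 4 was the lowest control pool (0.35%) and not the lowest transgenic pool. That probe set is very bright, and how near it lay to the top of the scanner's range was not tested.

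**Figure D3:**
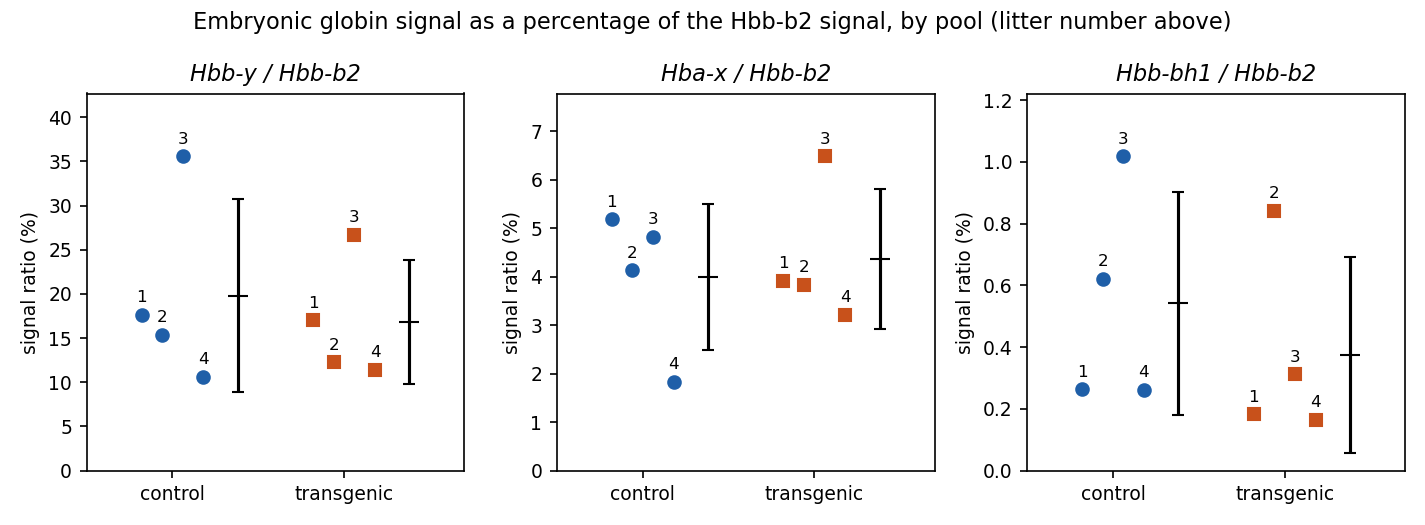
Signal of Hbb-y, Hba-x and Hbb-bh1 as a percentage of the Hbb-b2 signal in each pool, numbered by litter, with bars for the mean and 1 SD of 4 pools. The Hbb-y ratio is highest in litter 3 in both groups (35.6% and 26.7%), and control and transgenic pools overlap in each panel.

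The pools were then compared by litter, with the genotype label kept in the model. A moderated F test between the 4 litters (limma) was added after the signals were seen, and 109 of 22518 tested probe sets (0.484%) passed an adjusted p of 0.05. Of the 8 probe sets, 5 were among them: Hbb-y ranked 1, 2 and 7 by p, Hbb-b2 ranked 3 and Alas2 ranked 5. Their F values were 70.8, 67.3, 44.9, 57.1 and 46.5. Hba-x had an F of 11.6 and Slc4a1 of 11.4 and 3.99, below the threshold. These signals were known when the genes were chosen, so the ranks are a description of the pools.

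Litter accounted for a median of 97.0% of the variance within groups over the 8 probe sets, against 61.3% over all tested probe sets. With so few pools per litter, noise alone gives litter a large share of this variance. The 61.3% is therefore a level to compare with and no measure of a litter effect in a typical probe set. For 7 of the 8, litter 3 was the highest in both groups, as it was for 6.56% of all tested probe sets and for 16 of the 109 that passed. The exception was the brighter Slc4a1 probe set. Among the brightest tested probe sets of the 5 genes, the excess of litter 3 was greatest for Hbb-y. It was 4.23 and 2.87 times the median of the other litters for Hbb-y in the control and transgenic group. The dimmer Hbb-y probe set 1450621_a_at gave 7.42 and 5.22. The brightest probe sets gave 2.13 and 2.65 for Hba-x, 1.83 and 1.57 for Hbb-b2, and 1.83 and 1.48 for Alas2. The brighter Slc4a1 probe set gave 1.63 and 1.42. Without litter 3, Hbb-b2 (F of 48.0) and Alas2 (F of 25.4) still passed among the 3 other litters and no Hbb-y probe set did, with F values of 2.09, 1.23 and 4.66. Among those litters, Hbb-b2 and Alas2 were higher in litter 4 than in litters 1 and 2 in both groups.

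Correlations of log2 signals across the 8 arrays, which share litters, are given as a description. Hbb-b2 and Alas2 had an r of 0.96 (0.92 over the 6 arrays without litter 3), Hbb-b2 and Slc4a1 0.94 (0.95), and Alas2 and Slc4a1 0.94 (0.98). Hbb-y and Hba-x had an r of 0.90, which fell to 0.02 without litter 3. Hbb-y had an r of 0.77 with Hbb-b2 (0.60 without litter 3), 0.81 with Alas2 (0.49) and 0.60 with Slc4a1 (0.57). By rank, Hbb-y was closer to Hbb-b2 and Alas2 (Spearman's rho of 0.81 and 0.83) than to Hba-x (0.57). Hbb-b2, Alas2 and Slc4a1 kept their relation in the other litters, and that of Hbb-y with Hba-x rested on litter 3.

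**Figure D4:**
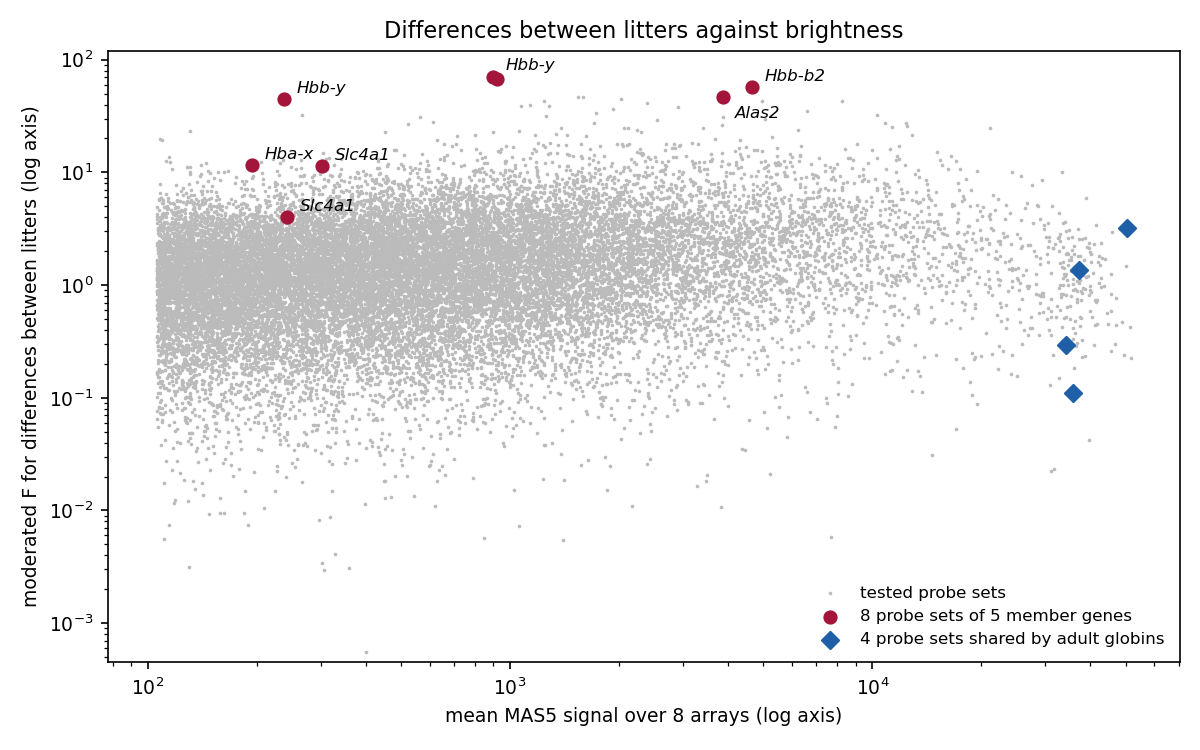
Moderated F for differences between litters against mean MAS5 signal, both on log axes, for 22518 tested probe sets (grey), the 8 tested probe sets of the 5 bright genes (red, named) and the 4 shared adult globin probe sets (blue). Hbb-y, Hbb-b2 and Alas2 lie at the top with F from 44.9 to 70.8, and the shared adult globin probe sets have F from 0.11 to 3.18.

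Other genes of the red cell lineage were read from lists of haem synthesis, membrane, transcription factor and iron uptake and maturation genes. Of 73 such genes outside the 8, 58 had a probe set of their own and 37 were tested. Between genotype labels 0 of 37 passed the adjusted threshold (limma, without or with the block). An unadjusted p under 0.05 was found for 1 of the 37 (5 with the block). Over all tested probe sets the shares were 3.29% and 5.54%. Fitted differences were above 0 for 14 and below 0 for 23, where 48.8% of all tested probe sets were below 0. The median was -0.08 against 0.00 over all tested probe sets. The array with the highest signal belonged to litter 3 for 17 of the 37, as for 23.9% of all tested probe sets. The differences ran from -0.35 for Sptb, which encodes beta spectrin, to 0.49 for Tfr2, a transferrin receptor that senses iron.

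Haem synthesis and mitochondrial import gave 11 tested genes, 4 above and 7 below 0, with a median of -0.07. Fech, the enzyme that inserts iron into the porphyrin ring, read 2077, 2641, 4434 and 3641 in the control pools and 1947, 2746, 2970.1 and 2891 in the transgenic pools, and differed between litters (limma F test, adjusted p = 0.041). Slc25a37, the mitochondrial iron importer mitoferrin, read 868, 1050.2, 2343 and 1908 in the control pools and 816, 1374, 1588 and 1438 in the transgenic pools (adjusted p = 0.039, limma F test). Litter 3 was the highest of each group for both genes, as for Alas2. Neither gene passed without litter 1 (adjusted p = 0.46 for Fech and 0.39 for Slc25a37, limma F test) or with no intensity trend (0.39 for both). Urod (-0.07) and Tmem14c (0.04), the brightest after Fech and both brighter than Slc25a37, did not pass in either comparison. Neither comparison was passed by Alas1 (0.08), the form of the first enzyme found in most tissues.

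The membrane list had 8 tested genes besides Slc4a1, 4 on each side of 0. The brightest were the water channel Aqp1 (-0.22), the glycophorin Gypc (0.15) and the ankyrin Ank1 (0.20). The 8 tested transcription factors had 3 above and 5 below 0, and 0 of 8 had an unadjusted p under 0.05 between litters. Their brightest members, Sox6 (-0.08), Klf3 (-0.11), Ldb1 (0.01) and Zbtb7a (-0.04), are not particular to red cells, and Sox6 is also a chondrocyte factor. Iron uptake and maturation had 10 tested genes, 3 above and 7 below 0 with a median of -0.14. Among the brightest, the peroxiredoxin Prdx2 read 8278, 8295, 10467 and 9372 in the control pools and 7199, 7554, 9639 and 8519 in the transgenic pools. Prdx2 did not pass between litters (adjusted p = 0.064, limma F test). Bpgm, the enzyme that makes the haemoglobin effector bisphosphoglycerate, passed on the probe set 1448119_at (adjusted p = 0.018, limma F test) and not on its brightest one (0.062). By their brightest probe sets, 5 of the 10 genes had an unadjusted p under 0.05 there, where 14.6% of all tested probe sets did. Tfrc (0.07) and Xpo7 (0.03) were close to 0 between genotype labels.

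Summed over its tested genes, the globin family list was 2.15 times the median of the other litters in the control pool of litter 3 and 1.80 times in the transgenic pool. That sum holds Hbb-y, Hba-x and Hbb-b2 and not the shared adult globin probe sets. The other red cell lists were 1.40 and 1.16 times for haem, 1.18 and 1.27 for iron uptake and maturation, 1.02 and 0.96 for membrane and 1.02 and 1.04 for transcription factors. Lists of other cell types were between 0.62 and 1.48 times: 0.83 and 1.07 for endothelium, 0.99 and 1.32 for macrophage, 0.62 and 0.82 for granulocyte, 1.10 and 1.48 for megakaryocyte and 1.05 and 0.98 for cartilage. The part of these cell types in the litter 3 values was not tested.

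The genes most like the adult-side set across the 8 arrays were looked up by Pearson's r with the mean standardised log2 profile of Hbb-b2, Alas2, Slc4a1 and Epb42. Because Epb42 was dim, the profile was also taken without it, a choice made after the values were seen. The nearest genes to that profile were Isg20 (0.99), Katnbl1 (0.99), Bpgm (0.98), Smtn (0.97), Mkrn1 (0.97), Car2 (0.97), Tent5c (0.96), Aftph (0.96), Rsad2 (0.95) and Prdx2 (0.95), of which Bpgm, Car2 and Prdx2 are on the erythroid lists. With Epb42, 4 of the 10 were the same (Aftph, Bpgm, Katnbl1 and Tent5c) and only Bpgm was on the lists. Tent5c read 609, 959, 1943 and 1560.3 in the control pools and 591, 865, 1232 and 1313 in the transgenic pools, an order close to that of Hbb-b2.

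The embryonic profile, taken from Hbb-y and Hba-x without the dim Hbb-bh1, was nearest to Meg3 (0.95), Brcc3 (0.94), Gabarap (0.94) and Ctdspl2 (0.94). None of its 10 nearest genes was on the erythroid lists, and 3 of the 10 (Meg3, Gabarap and Rarg) were also nearest to the profile with Hbb-bh1. The excess of litter 3 was smaller in them: Meg3 read 1001, 1094, 1432 and 1001 in the control pools and 1065, 1054, 1311 and 1022 in the transgenic pools. The embryonic and adult-side profiles shared 0 of their 10 nearest genes. These values of r rest on 8 arrays from 4 litters and carry no p.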

How the data were processed

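The deposited values were MAS5 signals, one intensity per probe set and array, for which the submitters' processing notes name MAS5 as the authors' tool, with no version. The trimmed mean, without 2% of values at each end, was nearly the same on every array, and array medians ran from 100.547 to 115.064, with rank correlations between arrays from 0.932 to 0.943. Of 45101 probe sets, 64 control probe sets were left out, and 45037 were named from the platform annotation: 34945 carried 1 gene symbol, 932 several and 9160 none. Signals were taken as log2(signal + 32). Probe sets with a mean signal above the median were fitted with limma 3.58.1 in R 4.3.3, with an intensity trend and no block, and p-values were adjusted by Benjamini and Hochberg over 22518 probe sets. Scripts were tested on simulated data. The series' text says that embryos of each of 4 litters were split by genotype, and the shared sample codes tie replicate numbers to litters, so litter was also fitted as a block. Deviations from group means correlated at 0.28, 0.17, 0.04 and 0.14 between the arrays of litters 1 to 4, against a mean of -0.05 between litters. Taking deviations from group means ties the second value to the first ones, so it is no independent baseline. The test between litters, the profiles without dim genes, and other ratios were added after the values were seen. The genes and lists were chosen with earlier results of these data known. Named genes were all probe sets of the 8 genes, up to 4 brightest tested genes per list and the 10 most alike in profile, and others named (Slc25a37, Alas1, Sptb, Tfr2, Lmo2, Cbfa2t3, Lyl1, Zfpm1 and the regulators below the filter) were chosen after their values were seen. Alternatives were other constants, filters, block forms, probe set choices and each array or litter left out. Promoter windows came from RefSeq. The number of arrays limits the precision.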

Additional observations from a re-analysis of the deposited data

Results flagged for a closer look

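In groups of 4 pools, a pool whose gap to its nearest neighbour took most of the group's range was marked. There were 9 such marks among 50 groups examined, and 8 of the 9 were on pools of litter 3. Chance alone marks about 1 in 20 independent groups. These groups are not independent, since several probe sets read one gene, and the signals were known when the genes were chosen, so nothing is read from the count. For Hbb-y, the control pool of litter 3 stood apart on all 3 probe sets, with 2563 on 1436823_x_at, 2518 on 1436717_x_at and 863 on 1450621_a_at. The transgenic pool of litter 3 stood apart on the first and second of these, with 1474 and 1436. For Hba-x, the transgenic pool of litter 3 stood apart with 358. Klf1 read 119 in the control pool of litter 3, against 57.2 or less in the other control pools. A dim Hbb-bh1 probe set, 1437810_a_at, read 49.3 in the transgenic pool of litter 3, where the brightest Hbb-bh1 probe set was not high. The remaining mark was on another dim Hbb-bh1 probe set, 1450736_a_at, with 39.0 in the transgenic pool of litter 4.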

How the results depend on the processing

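The count of 0 probe sets between genotype labels held in 20 of 22 alternatives. It was 0 to 1 over the arrays left out in turn (1 without the transgenic array of litter 4) and 2 without both arrays of litter 4. With litter as a fixed or random replicate block it stayed 0, and the block gave the same log2 differences of the ratios to Hbb-b2 (-0.17 for Hbb-y, 0.18 for Hba-x and -0.62 for Hbb-bh1). Counts for the other erythroid genes were 0 in all 23 alternatives. The count of 109 between litters was not stable. It fell to 30 with no filter and to 0 with no intensity trend (2566 with an unadjusted p under 0.05). It ran from 11 to 182 over the arrays left out in turn, and was 10 without litter 1, 286 without litter 3 and 70 without litter 4. Of the 8 probe sets, 4 passed without litter 1, 2 without litter 3 and 0 with no intensity trend. The cause was not tested. The Hbb-y ratio difference ran from -0.42 to 0.16 over the arrays left out, changing sign once, without the control array of litter 3, and the sign for Hba-x held in 16 of 23 alternatives. All changes in the ratios were within 1 SD of the pools, a wide bound that sign changes also met. On the log2 scale that SD was 0.73 in the control and 0.56 in the transgenic group for Hbb-y, and 0.69 and 0.43 for Hba-x. Those values exceed the differences of -0.17 and 0.18, so no stability is read from it. Signals near background limit Hbb-bh1, Epb42 and Klf1.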
